A study of Mus musculus with 12 samples.

Results

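The genes described here encode the subunits of the oxidative phosphorylation machinery, in both the mitochondrial and the nuclear genome, measured in whole mouse spinal cord. Members were chosen by gene name alone: the mitochondrially encoded Nd, Co, Atp and Cytb genes, and the nuclear genes of the Nduf, Sdh, Uqcr, Cox4 to Cox8 and Atp5 families, with a mean level of at least 1 TPM (transcripts per 1000000, a level per length) over the 12 mice. The rule found 97 names among the 38924 genes in the tables and kept 93 of them, 13 mitochondrially encoded and 80 nuclear. Of the names just above the limit, Cox4i2 averaged 3.98 TPM, Cox6b2 9.44 TPM and Atp5s 17.9 TPM, and of those below it Cox7b2 averaged 0.819 TPM and Atp5l2 0.0575 TPM, while Cox8c and Atp5g2 were listed at 0 in all 12 mice. All 93 members passed the filter on low counts.

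The series compared 6 mice heterozygous for the P278KY allele of Gars with 6 WT mice, each genotype with 3 females and 3 males, all 8 weeks old and all on the B6J;CAST background. Gars encodes glycyl-tRNA synthetase, which charges glycine tRNAs in both the cytosol and the mitochondria, and dominant changes in it cause an inherited disease of peripheral motor and sensory axons. Libraries were made from polyA-selected RNA and held 28758979 to 39339999 expected counts in P278KY mice and 26982140 to 32750224 in WT mice. Gars itself averaged 141 ± 2.95 counts per 1000000 (CPM, scaled by TMM, the trimmed mean of M values) in P278KY cords and 129 ± 6.52 CPM in WT cords (SD, n = 6 each; log2 change 0.13, adjusted p = 0.0460), a total of both alleles that cannot check the allele itself. Motor neuron markers, which a cord should hold, summed to 3724 to 3982 CPM in P278KY mice and 4531 to 6707 CPM in WT mice. Skeletal muscle markers, which a cord should lack, reached 1803 and 4620 CPM in P278KY females 4 and 3 and 2889 and 11820 CPM in WT females 2 and 1, against 184.5 to 452 CPM in the other 8 mice. In whole tissue, fewer cells of a type and less RNA per cell cannot be told apart.

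Oxidative phosphorylation runs on 5 protein complexes of the inner mitochondrial membrane. Complex I and complex II take electrons from NADH and succinate, complex III passes them to cytochrome c, complex IV hands them to oxygen, and complex V, the ATP synthase, uses the proton gradient that results. Mitochondrial DNA encodes the hydrophobic core of complexes I, III, IV and V, whereas complex II and all remaining subunits come from nuclear genes and are imported, so that the complexes need both genomes. Axons depend on this ATP for transport and for ion pumping.

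On the count scale, subunit transcripts were slightly lower in P278KY cords across both genomes, with a lower median for the mitochondrially encoded ones; per length (TPM) the nuclear median was at 0.001 and lay below that of all genes, 0.062. The log2 change of P278KY against WT was below 0 for 87 of 93 members, against 51.1% of all 17980 genes tested. Its median was -0.19 over the 13 mitochondrially encoded members and -0.07 over the 80 nuclear members, against -0.0031 over all genes tested. By edgeR's quasi-likelihood test with sex as a covariate and Benjamini-Hochberg adjustment over all genes, 7 members passed an adjusted p of 0.05, and all 7 fell: mt-Nd2, mt-Nd4l, Ndufa1, Ndufv3, Ndufb6, Cox7a2 and Atp5k. That is 7.53% of the members, against a background of 2.95% of all genes called lower, and 0 members were called higher (2.36% of all genes), with 0 higher at an unadjusted p under 0.05 (9.79% of all genes) and 0 higher by DESeq2 or limma. DESeq2's Wald test called 23 lower (5.01% of all genes), limma voom 18 (4.59%) and edgeR after a stricter filter on low counts 12 (3.92%). At an unadjusted p under 0.05, 41 members were lower (44.1%, against 10.4% of all genes). None of these backgrounds is matched for level. The median level was 293.8 TPM over the members and 13.76 TPM over all genes tested, and small changes are easier to call at high counts. How much of the excess this accounts for was not tested. The count of 7 depended on single mice: it was 1 without P278KY male 6, P278KY male 7 or WT male 12, 2 without P278KY female 4 or WT male 11, 4 without WT female 2 or WT male 5, and 15 without WT female 1. On the log2(TPM + 1) scale with limma only 1 member passed, a lower one (background 1.38%), the median of all genes moved to 0.062, and the split over all genes was 248 lower of 1606 called, against 531 lower of 956 called on counts.

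**Figure D1:**
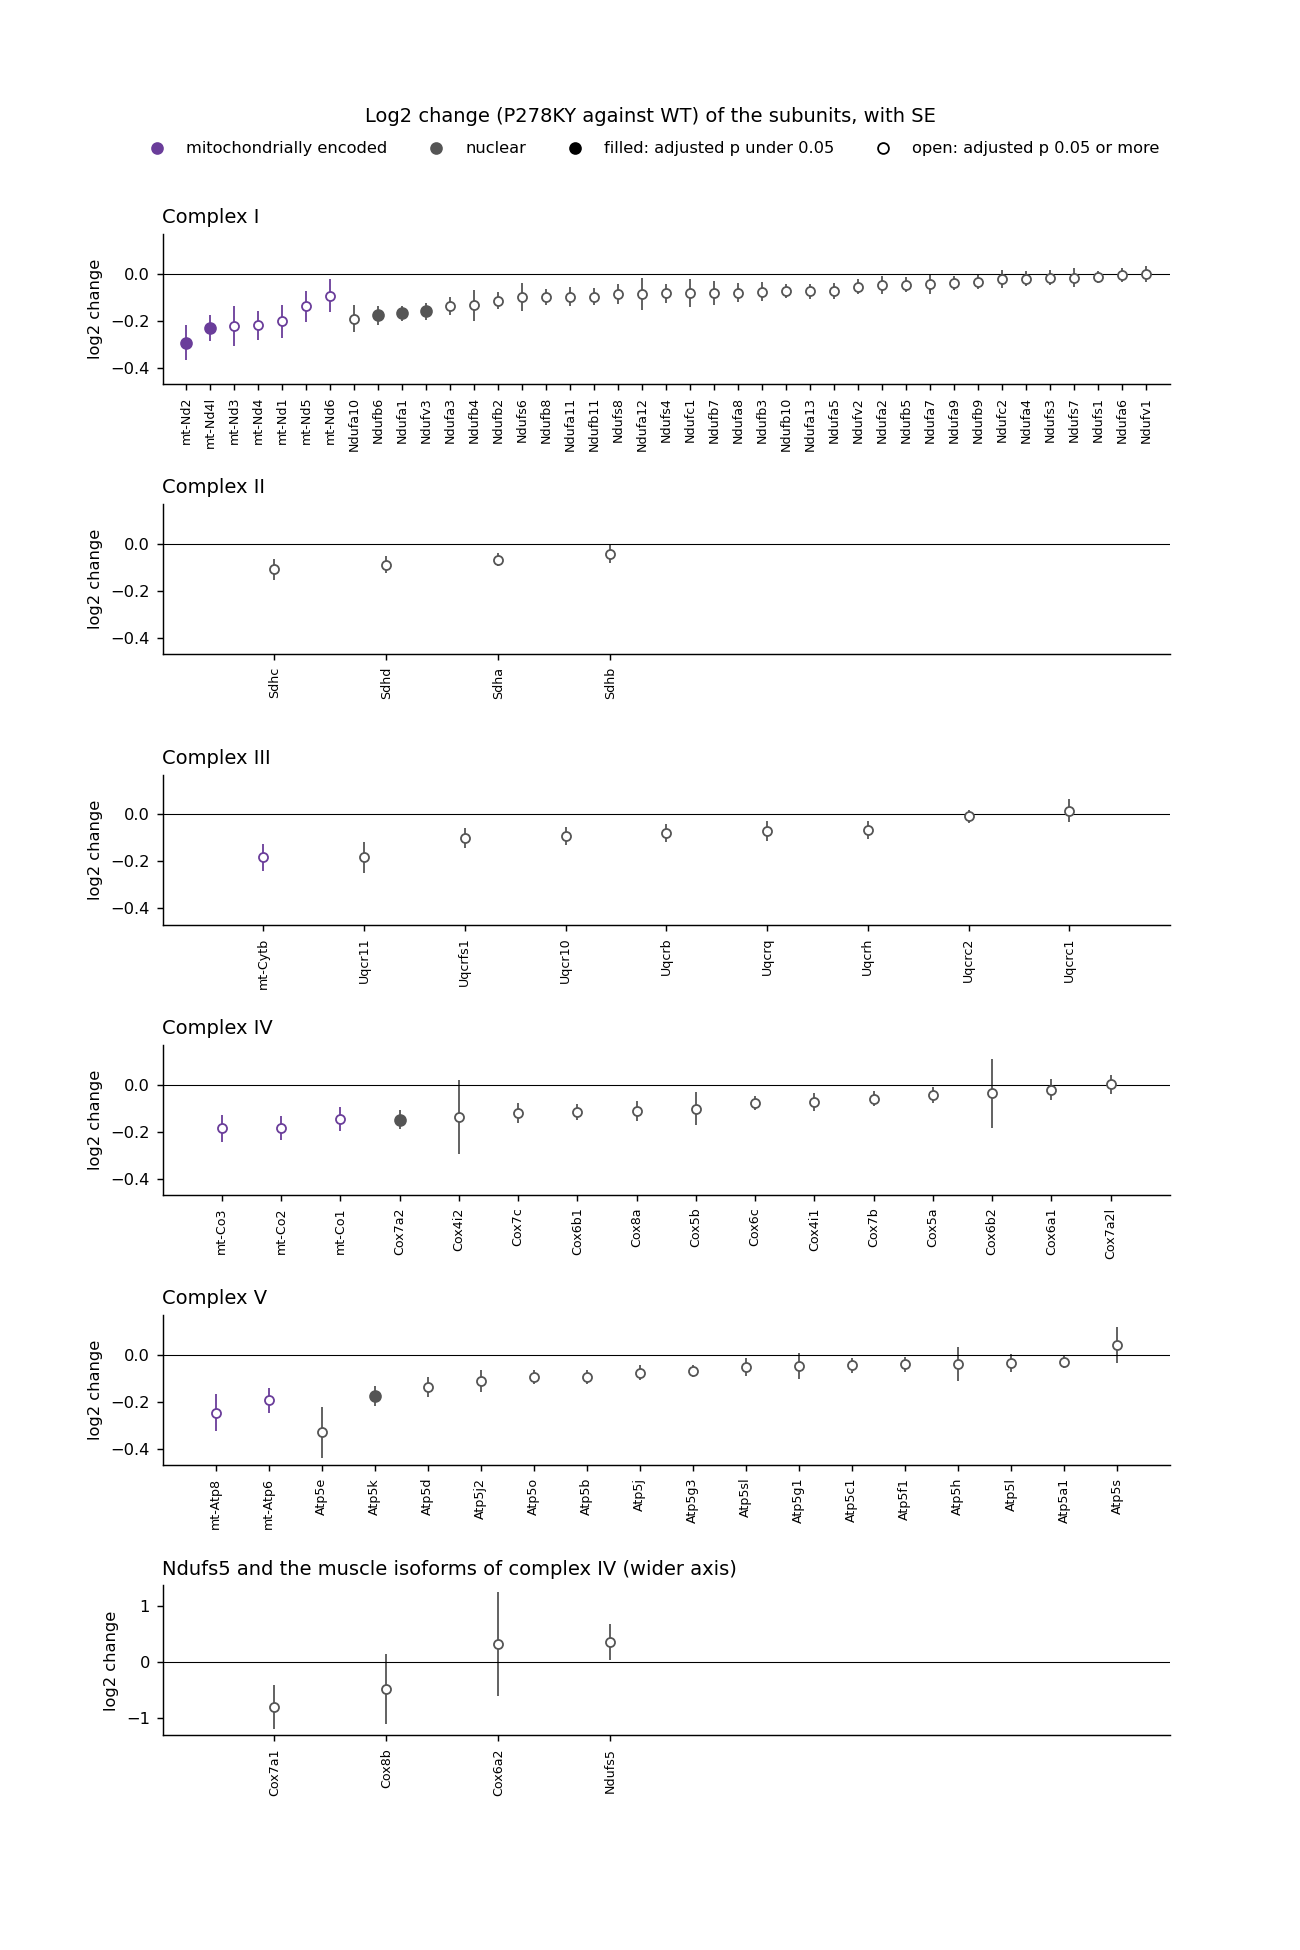
Log2 change of P278KY against WT with its SE (vertical axes) for 92 of the 93 subunits, by complex, with mitochondrially encoded members in purple and nuclear ones in grey; filled points passed an adjusted p of 0.05. Ndufs5 and 3 muscle isoforms have a panel of their own with a wider axis, and 86 of the 92 points lie below 0 on this count scale, where the median of all genes was -0.003.

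By complex, the medians of the log2 change lay close together within each genome. Among mitochondrially encoded members the median was -0.22 in complex I (7 genes, 2 called lower), -0.18 for the single complex III gene, -0.18 in complex IV (3 genes) and -0.22 in complex V (2 genes). Among nuclear members it was -0.07 in complex I (36 genes, 3 called lower), -0.08 in complex II (4 genes, 0 called), -0.08 in complex III (8 genes, 0 called), -0.09 in complex IV (16 genes, 1 called lower) and -0.06 in complex V (16 genes, 1 called lower). In complex II 3 genes, and in nuclear complex III 3 genes, were lower at an unadjusted p under 0.05, and 0 were higher. These counts of called genes are edgeR's. In complex II DESeq2's Wald test called Sdha lower (adjusted p = 0.0412) and limma voom called 0, and in nuclear complex III both called 0. In nuclear complexes I, IV and V, DESeq2's Wald test called 5, 2 and 5 members lower and limma voom 5, 2 and 3. Those of complex V included Atp5e by both tools (adjusted p = 0.0221 by DESeq2 and 0.0463 by limma voom). By edgeR Atp5e had a log2 change of -0.33 (adjusted p = 0.105). Its values varied widely, from 39.5 to 63.2 CPM in P278KY mice and from 45.1 to 73.5 CPM in WT mice. Only 2 P278KY mice lay below all WT mice, and the SD within genotype was 17.7% of the mean. Per length, the members differed far more by genome than by genotype: mitochondrially encoded members averaged 5162 to 38740 TPM each and nuclear members 3.98 to 1252 TPM each.

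The mitochondrially encoded transcripts made up 6.36 ± 0.495% of the expected counts in P278KY cords and 7.04 ± 0.215% in WT cords (SD, n = 6 each). Their summed level was 184078 ± 13210 TPM in P278KY cords and 201196 ± 5495 TPM in WT cords. The low values came from 3 of the 6 P278KY mice: the share was 5.90% in female 4, 5.96% in male 6 and 5.89% in male 7, whereas female 3 had 6.89%, male 8 had 6.82% and female 9 had 6.73%. WT mice ran from 6.66% in female 2 to 7.21% in male 12, so P278KY females 3 and 9 and male 8 fell inside the WT range and the other P278KY mice below it.

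mt-Nd2, a proton-pumping core subunit of complex I, had 2819 CPM in the lowest P278KY mouse, a median of 3135 and 3669 in the highest, against 3591, 3916 and 4109 CPM in WT mice. Of the 6 P278KY mice, 5 lay below all WT mice, and it fell by 18.4% (log2 change -0.29, SE 0.07, adjusted p = 0.0368). mt-Nd4l, the smallest of the core subunits of complex I in mitochondrial DNA, ran from 418 CPM through a median of 468 to 509 CPM in P278KY mice and from 525 through 542.5 to 574 CPM in WT mice. Its groups did not overlap, and it fell by 14.8% (log2 change -0.23, SE 0.05, adjusted p = 0.0289). Over all genes, 2.0% had every P278KY mouse below every WT mouse, and 2 of 93 members did, mt-Nd4l and Ndufa1, so this share was at the background.

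The other 11 mitochondrially encoded members did not pass the threshold by edgeR, and all 11 had a log2 change below 0. DESeq2's Wald test called 8 of the 11 lower, leaving out mt-Nd3, mt-Nd5 and mt-Nd6, and limma voom called 6, leaving out mt-Nd1 and mt-Atp8 as well. For complex I, edgeR's values were -0.22 for mt-Nd4 (adjusted p = 0.0623), -0.20 for mt-Nd1, -0.22 for mt-Nd3 and -0.14 for mt-Nd5. The smallest was -0.09 for mt-Nd6 (SE 0.07, adjusted p = 0.512), which is the only member transcribed from the light strand of mitochondrial DNA. mt-Nd6 averaged 1269 ± 149 CPM in P278KY cords and 1352 ± 55.9 CPM in WT cords. The strand setting behind the deposited counts is not given, so its counts may include reads of the opposite strand. mt-Cytb, the electron-carrying core of complex III, had a log2 change of -0.18 (adjusted p = 0.0823). Of the catalytic core of complex IV, mt-Co1 had -0.15 (adjusted p = 0.127), mt-Co2 -0.18 (adjusted p = 0.0622) and mt-Co3 -0.19 (adjusted p = 0.0854). Of the membrane part of the ATP synthase, mt-Atp6, which forms its proton channel, had -0.19 (adjusted p = 0.0607) and mt-Atp8 -0.25 (adjusted p = 0.0887). mt-Atp8 had the highest level per length of all members, 36220 TPM in P278KY and 41270 TPM in WT cords, but only 1244 CPM in P278KY and 1475 CPM in WT cords; its transcript is only 204 bases long, and TPM divides by length.

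**Figure D2:**
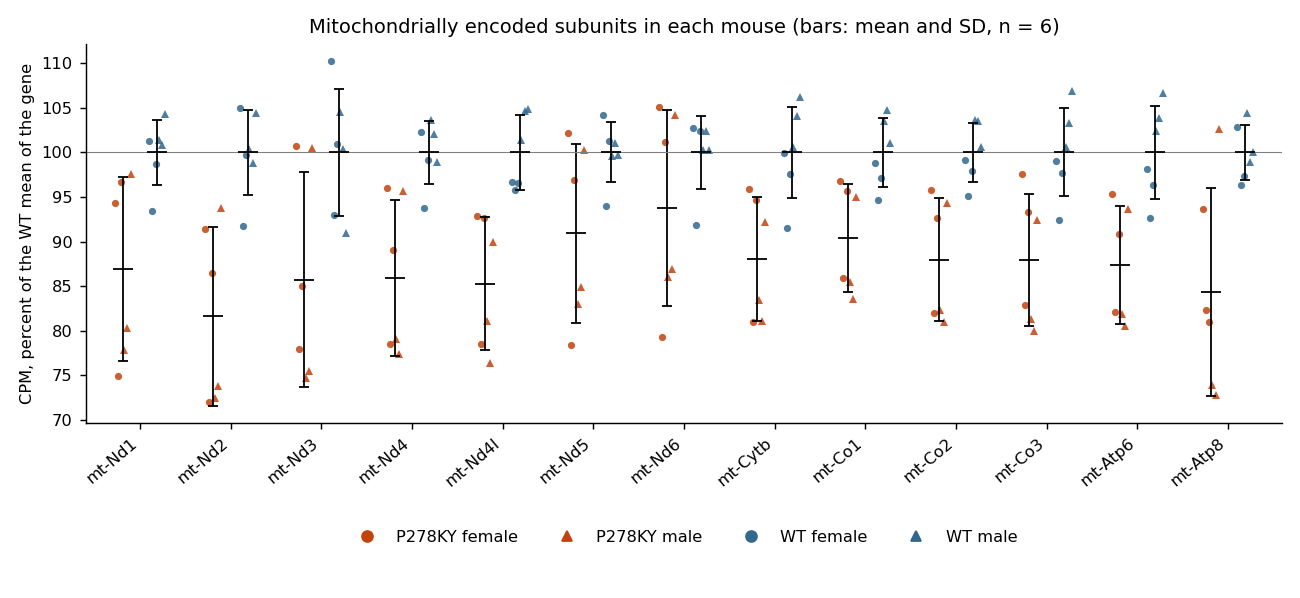
CPM of the 13 mitochondrially encoded subunits in each mouse as a percentage of the WT mean of the gene (vertical axis), with P278KY left of WT; circles are females, triangles males, and bars the mean and SD of 6 mice. For most genes P278KY female 4 and males 6 and 7 sit lowest, and the P278KY mean for mt-Nd2 is 18% below WT.

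Marker sums were set beside the 3 low mice. Astrocyte markers summed to 6650 CPM in female 4, 6673 in male 6 and 6751 in male 7, and to 7027 to 7866 CPM in the other P278KY mice, against 6295 to 7000 CPM in WT mice. Oligodendrocyte markers summed to 30290, 25630 and 26380 CPM in those mice and to 30870 to 31570 CPM in the other P278KY mice, against 27180 to 36640 CPM in WT mice. Sensory ganglion markers summed to 84.7 CPM in male 7 and to 15.6 to 18.2 CPM in the other P278KY mice, against 47.1 CPM in WT female 10, 35.1 CPM in WT male 11 and 9.33 to 17.9 CPM in the other WT mice. Motor neuron markers did not follow the 3 low mice, at 3930, 3732 and 3781 CPM against 3724 to 3982 CPM in the other P278KY mice. The part of these markers in the result was not tested. The mitochondrial ribosomal RNAs mt-Rnr1 and mt-Rnr2, which come from the same heavy-strand transcription, did not share the low values: mt-Rnr1 averaged 2069 ± 254 CPM in P278KY and 1913 ± 205 CPM in WT cords (log2 change 0.11, adjusted p = 0.378), and mt-Rnr2 averaged 3592 ± 306 CPM in P278KY and 3332 ± 286 CPM in WT cords (log2 change 0.11, adjusted p = 0.400). These RNAs are caught only in part by polyA selection.

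The counts of mt-Nd4l carry a further limit, because the nuclear genome holds a copy of it. Gm10222, an unprocessed pseudogene at chr1:24612407-24612700 (GRCm38, minus strand), is identical over 294 bases to mt-Nd4l at chrM:9877-10173 (plus strand), and the run is shown because reads from it cannot be told apart. No base differs, so it is printed once, in lower case throughout.
mt-Nd4l and Gm10222: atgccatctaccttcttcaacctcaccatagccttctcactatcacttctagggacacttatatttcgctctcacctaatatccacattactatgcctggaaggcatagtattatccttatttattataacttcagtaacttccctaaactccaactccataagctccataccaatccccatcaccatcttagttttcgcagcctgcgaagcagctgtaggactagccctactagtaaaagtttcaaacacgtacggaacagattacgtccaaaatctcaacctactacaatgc
The deposited counts were split evenly between the pair, 418 to 574 CPM each over the 12 mice. With both added, the sum averaged 934 ± 81.7 CPM in P278KY cords and 1095 ± 46.1 CPM in WT cords, and the log2 change stayed at -0.23 (SE 0.06, adjusted p = 0.0306).

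Of the nuclear members, 5 of 80 fell by edgeR, against a background of 2.95% of all genes called lower. Cox7a2 fell by 9.78% and Ndufb6 fell by 11.6%, with the others between them. All 5 are accessory subunits that surround the catalytic cores, a kind that outnumbers core subunits in nuclear complex I, at 28 members against 7. DESeq2's Wald test also called the catalytic subunits Sdha and Atp5b lower (adjusted p = 0.0412 and 0.000918). Ndufa1, an X-linked accessory subunit of complex I needed for its assembly, had 32.2 CPM in the lowest P278KY mouse, a median of 32.6 and 33.0 in the highest, against 35.0, 36.5 and 38.3 CPM in WT mice. Its groups did not overlap, and the P278KY mice lay closer together than the WT mice (log2 change -0.17, SE 0.03, adjusted p = 0.00967). Ndufv3, an accessory subunit of the NADH-oxidising arm of complex I, ran from 43.1 through 45.5 to 47.6 CPM in P278KY mice and from 47.3 through 51.0 to 52.5 CPM in WT mice (log2 change -0.16, SE 0.04, adjusted p = 0.0258). Ndufb6, an accessory subunit of the membrane arm of complex I, ran from 42.2 through 46.4 to 47.5 CPM in P278KY mice and from 47.1 through 51.1 to 55.5 CPM in WT mice (log2 change -0.18, SE 0.04, adjusted p = 0.0287). For Ndufv3 and Ndufb6 only 1 P278KY mouse reached into the WT range.

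Cox7a2, the form of a small complex IV subunit found in most tissues, ran from 85.6 through 87.4 to 97.7 CPM in P278KY mice and from 97.0 through 100.9 to 102 CPM in WT mice (log2 change -0.15, SE 0.04, adjusted p = 0.0433). P278KY female 9 and male 8 lay near the WT mice and the other 4 well below. Atp5k, the e subunit in the membrane part of the ATP synthase, ran from 58.9 through 64.7 to 67.1 CPM in P278KY mice and from 66.5 through 71.0 to 79.0 CPM in WT mice (log2 change -0.17, SE 0.04, adjusted p = 0.0314). Leaving out 1 mouse at a time, Ndufa1 passed in all 12 fits, with adjusted p up to 0.0278. The calls of the other 6 members were each lost in 6 to 9 of the 12 fits, and all 6 were lost without P278KY female 4, P278KY male 6, P278KY male 7 or WT male 12, with adjusted p up to 0.0731 for Ndufv3, 0.0768 for Ndufb6, 0.0796 for mt-Nd4l, 0.0817 for Atp5k, 0.0889 for mt-Nd2 and 0.108 for Cox7a2.

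**Figure D3:**
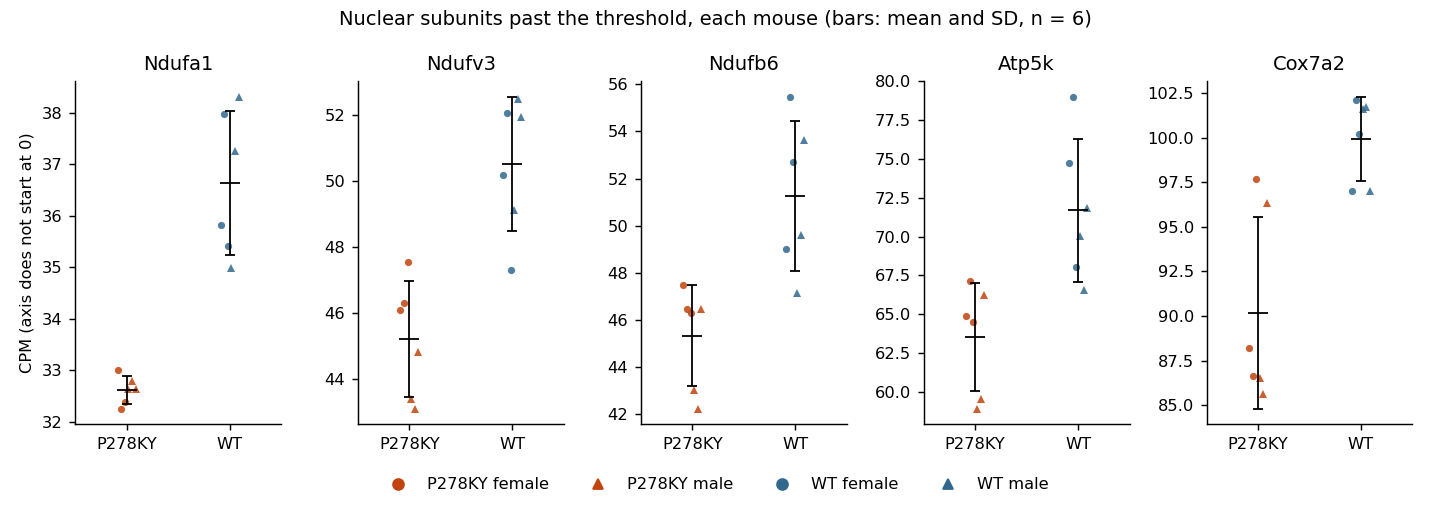
CPM (vertical axes, not starting at 0) of the 5 nuclear subunits with an adjusted p under 0.05, with P278KY left of WT; circles are females, triangles males, and bars the mean and SD of 6 mice. The Ndufa1 groups are apart, at 32.2 to 33.0 CPM in P278KY and 35.0 to 38.3 CPM in WT mice, and in the other panels the groups touch.

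In complexes II to V, the nuclear members with the 3 smallest p in each were named. In complex I these were the 3 called above, and further members of complexes I, IV and V with p as small are not listed here. In complex II, Sdha, the flavoprotein that oxidises succinate, averaged 417 ± 8.68 CPM in P278KY and 436 ± 10.5 CPM in WT cords (log2 change -0.07, adjusted p = 0.182), and the membrane anchors Sdhc and Sdhd had log2 changes of -0.11 and -0.09 (adjusted p = 0.204 and 0.192). In complex III, the small subunits Uqcr11 and Uqcr10 had -0.18 and -0.09 (adjusted p = 0.139 and 0.209) and Uqcrfs1, the Rieske iron-sulfur protein, had -0.10 (adjusted p = 0.202). In complex IV, Cox6b1 had -0.12 (adjusted p = 0.0578) and Cox7c -0.12 (adjusted p = 0.121). In complex V, Atp5b, the catalytic beta subunit and the most abundant nuclear member at 1252 TPM, averaged 958 ± 20.9 CPM in P278KY and 1023 ± 25.7 CPM in WT cords (log2 change -0.09, adjusted p = 0.0748). Atp5d, the delta subunit of the central stalk, had -0.14 (adjusted p = 0.0847). These adjusted p values are edgeR's. Of the genes in this paragraph, DESeq2's Wald test called Sdha, Cox6b1, Atp5b and Atp5d lower, and limma voom called Atp5b (adjusted p = 0.0329).

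Transcript length and the scale of the values both moved with the nuclear result. Most nuclear members have short transcripts, and short transcripts of all kinds were slightly lower in P278KY cords: the median log2 change was -0.08 over the 57 nuclear members of up to 1000 bases, against -0.04 over all 2064 tested genes of that length. Over 3000 bases it was 0.01 for all genes. In finer classes, the medians up to 600 bases were -0.084 for 27 nuclear members and -0.046 for all genes. From 600 to 800 bases they were -0.074 (21 members) and -0.053, and from 800 to 1000 bases -0.087 (9 members) and -0.027. The TMM factors also differed by genotype without overlap, at 1.001 to 1.022 in P278KY and 0.975 to 1.0 in WT mice. Per length, the summed level of the 80 nuclear members was 24683 ± 648 TPM in P278KY and 24719 ± 852 TPM in WT cords, and on the log2(TPM + 1) scale their median change was 0.001 against 0.062 for all genes tested. Set against all genes, which were not matched for length, the difference of the nuclear median was -0.061 on log2(TPM + 1) and -0.071 on counts. The median length was 718.6 bases for nuclear members and 2431 bases for all genes tested. A difference from genes of the same length was not computed on TPM. For the mitochondrially encoded members, with a median of -0.122 on log2(TPM + 1), this difference was -0.184 there and -0.191 on counts.

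A short run of promoter is shown for Atp5k because, among the 5 nuclear members that fell, it was the one with a searched motif in the 150 bases before its RefSeq start (GRCm38.p6, chr5:108434400-108434549, minus strand). The capitals mark the overlapping matches to GCGCATGCG on the 2 strands, the core of the site of NRF1, a factor known to bind many promoters of respiratory genes.
Atp5k: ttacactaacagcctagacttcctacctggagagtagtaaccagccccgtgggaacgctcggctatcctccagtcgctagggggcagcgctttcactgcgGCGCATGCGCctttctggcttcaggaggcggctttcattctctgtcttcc
RefSeq promoter windows of 250 bases before and 50 after the start were at hand for 64 of the 80 nuclear members. On both strands, GCGCATGCG was in 7 of them (10.9%, against 1.95% of the 27025 genes with a window), and the looser GCGCANGCG, which includes it, in 19 (29.7%, against 7.03%). The ETS-factor motif CCGGAAG was in 16 (25.0%, against 9.93%), the YY1 motif AAGATGGCG in 7 (10.9%, against 1.64%), the ERR motif TCAAGGTCA in 2 (3.13%, against 0.466%) and the ATF4 motif TGATGNAA in 0 (against 4.51%). These are matches of letters and were not measured as binding.

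Within each sex, the mitochondrially encoded median was -0.11 in females and -0.27 in males, and the nuclear median -0.04 in females and -0.10 in males. In females 0 members passed (background 0.573% of all genes in either direction), with 8 members at an unadjusted p under 0.05 by edgeR (8.6%, against 12.4% of all genes) and 0 called by limma voom. In males 2 members passed and both fell, mt-Nd4l (log2 change -0.33, SE 0.07, adjusted p = 0.0376) and Ndufv3 (log2 change -0.23, SE 0.05, adjusted p = 0.0398), against a background of 1.55% of all genes, and 39 members reached an unadjusted p under 0.05 (41.9%, against 14.3% of all genes). The difference between the sexes was not detected: 0 members passed the interaction (0.0% of all genes), 0 reached an unadjusted p under 0.05, where 3.7% of all genes did, and limma voom called 0. For mt-Nd4l the change in females minus that in males was 0.20 on the log2 scale by edgeR (adjusted p = 0.9999).

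Tissue isoforms of complexes IV and V were present at very different levels per length. Cox4i1, the common form of subunit 4, averaged 988 TPM and its lung-enriched, hypoxia-linked paralog Cox4i2 averaged 3.98 TPM. Cox6b1 averaged 672 TPM and the testis form Cox6b2 9.44 TPM. Cox6a1 averaged 634 TPM, Cox7a2 296 TPM and Cox8a 800 TPM, and their heart and muscle counterparts Cox6a2 27.8 TPM, Cox7a1 30.2 TPM and Cox8b 29.0 TPM. For the c ring of the ATP synthase, Atp5g3 averaged 678 TPM and Atp5g1 337 TPM, while Atp5g2 was listed at 0. An exact 0 in every library cannot tell a gene that is not expressed from one missed by the annotation or mapping used. Besides Cox7a2, 0 of these isoforms passed the threshold by edgeR, while DESeq2's Wald test called Cox6b1 (adjusted p = 0.0150) and limma voom called Cox8a (adjusted p = 0.0470), both lower. By edgeR they had log2 changes of -0.07 for Cox4i1, -0.02 for Cox6a1, -0.11 for Cox8a, -0.14 for Cox4i2, -0.04 for Cox6b2, -0.07 for Atp5g3 and -0.05 for Atp5g1. Cox7a2l, which joins complexes III and IV in supercomplexes, had 0.0012 (SE 0.04).

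Within each genotype, the muscle isoforms were higher in the mice with high skeletal muscle markers than in the other mice. Cox6a2 was at 18.6 CPM in P278KY female 3 and 8.69 CPM in P278KY female 4, and at 41.2 CPM in WT female 1 and 9.76 CPM in WT female 2, against 1.67 to 2.89 CPM in the other P278KY mice and 0.293 to 1.36 CPM in the other WT mice. Cox8b was at 6.47 and 3.39 CPM in P278KY females 3 and 4 and at 16.4 and 5.22 CPM in WT females 1 and 2, and at 0.694 to 1.47 CPM in the other 8 mice. Cox7a1 was at 5.98 and 2.98 CPM in P278KY females 3 and 4 and at 10.85 and 5.08 CPM in WT females 1 and 2. In the other mice Cox7a1 ran from 1.29 to 2.421 CPM in P278KY and from 2.415 to 3.18 CPM in WT. P278KY female 4 thus lay below WT male 11 for this gene. These females were the 4 mice with 1803 or more summed CPM of muscle markers, all 20 of which were detected. Cox8b had a log2 change of -0.48 (SE 0.63, adjusted p = 0.734) and Cox6a2 0.32 (SE 0.93, adjusted p = 0.892), both within the spread between mice. Cox7a1 had -0.80 (SE 0.39, adjusted p = 0.288) and did not pass the threshold either. Among the P278KY mice low in muscle markers, male 8, at 2.421 CPM, lay above the lowest WT mouse, at 2.415 CPM. The other P278KY mice low in muscle markers had 1.29 to 1.48 CPM of Cox7a1. Cox7a1 was not tested in these 8 mice by themselves, and the share of all genes that separate as well in them was not counted. Its levels there, 1.29 to 3.18 CPM, are low. Without these 3 genes the nuclear median was -0.07, and without the 4 mice high in muscle markers it was -0.071 and the mitochondrially encoded median -0.236.

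**Figure D4:**
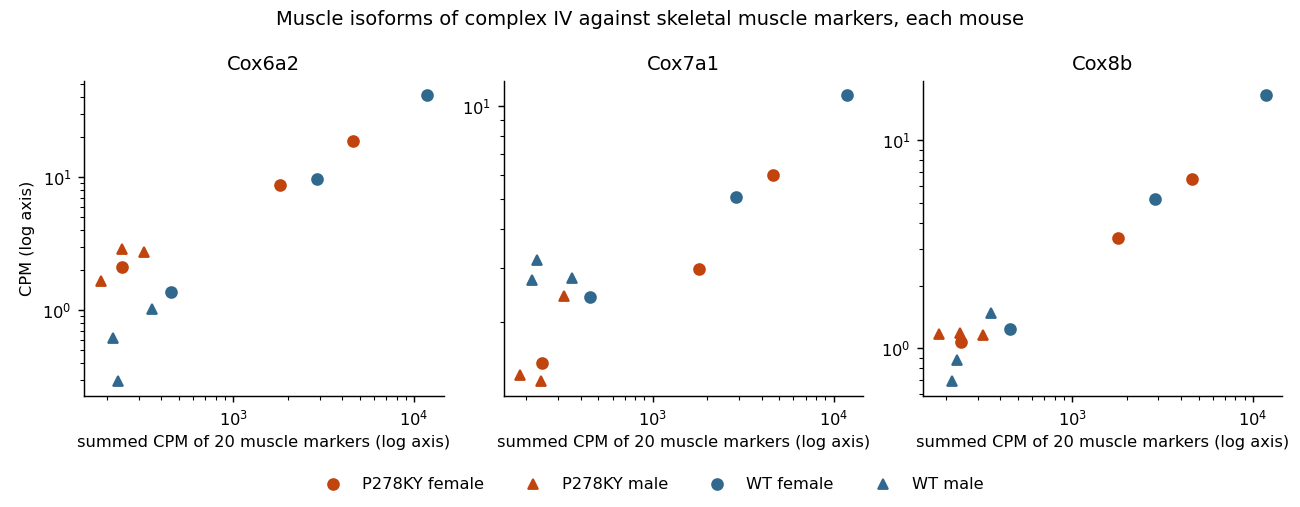
CPM of Cox6a2, Cox7a1 and Cox8b (vertical log axes) against the summed CPM of 20 skeletal muscle markers (horizontal log axes) in each of the 12 mice; circles are females, triangles males. The 4 mice at the right of each panel are P278KY females 3 and 4 and WT females 1 and 2, with 1803 to 11820 CPM of muscle markers.

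Ndufs5, an accessory subunit of complex I, had the highest log2 change of all members, 0.36 (SE 0.33, adjusted p = 0.609), and its values fell into 2 levels that cut across genotype. It stood at 66.4 to 73.3 CPM in P278KY females 3 and 4, P278KY males 6 and 7, and WT males 5 and 11. It stood at 30.4 to 35.8 CPM in P278KY female 9 and male 8, WT females 1, 2 and 10, and WT male 12. BC002163, a processed pseudogene at chr16:42955631-42955949 (GRCm38, plus strand), showed the reverse: 25.8 to 29.6 CPM in the mice where Ndufs5 was low and 0 to 0.210 CPM where it was high. The copy aligned to 319 bases from the start codon of Ndufs5 (gene at chr4:123712710-123718202, minus strand) with 2 differences. The first 150 of these bases are shown because they hold both, T81C and A105G, in capitals, counted from the first base printed, with the base of Ndufs5 first.
Ndufs5: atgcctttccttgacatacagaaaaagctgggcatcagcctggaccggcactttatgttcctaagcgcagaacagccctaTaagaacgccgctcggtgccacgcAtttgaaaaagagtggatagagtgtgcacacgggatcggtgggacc
BC002163: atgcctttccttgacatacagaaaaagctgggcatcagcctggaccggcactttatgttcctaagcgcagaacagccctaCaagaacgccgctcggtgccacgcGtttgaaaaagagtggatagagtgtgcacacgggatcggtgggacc
With the counts of both added, the level was 57.4 to 73.3 CPM over the 12 mice. The sum still differed between the 2 sets, at 57.4 to 65.06 CPM where Ndufs5 was low and 66.42 to 73.3 CPM where it was high. It averaged 65.6 ± 6.38 CPM in P278KY and 64.6 ± 5.38 CPM in WT cords, and its log2 change was 0.02 (SE 0.07, adjusted p = 0.888).

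**Figure D5:**
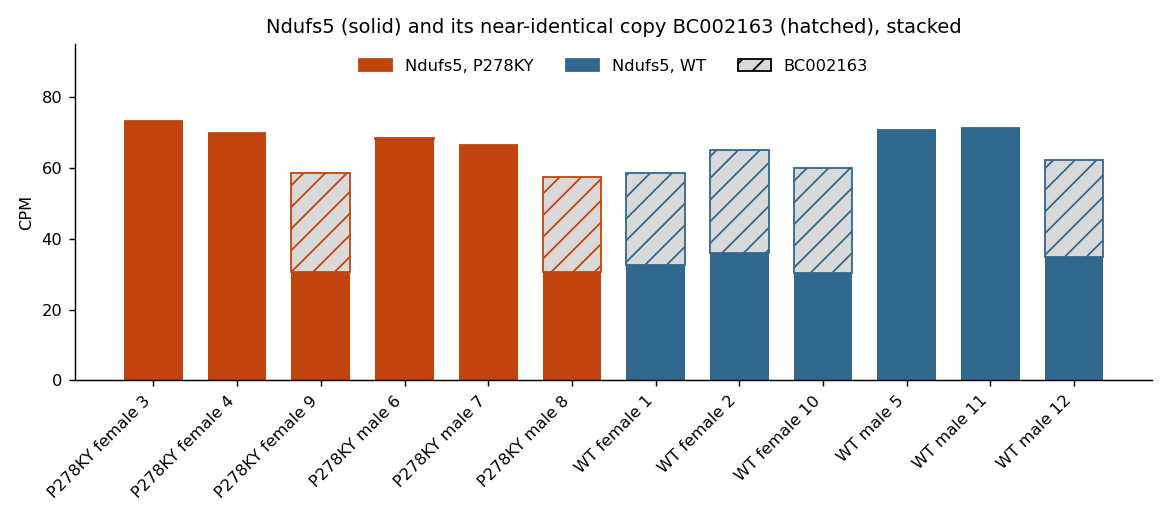
CPM of Ndufs5 (solid) and of its copy BC002163 (hatched, stacked on top) in each mouse, with the 6 P278KY mice left of the 6 WT mice. Ndufs5 alone stands at 30.4 to 35.8 CPM in 6 mice and at 66.4 to 73.3 CPM in the other 6. The stacks reach 57.4 to 65.06 CPM in the mice where it is low and 66.42 to 73.3 CPM where it is high.

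In total, 13 members had 16 near-identical copies among the annotated transcripts of genes in the deposited tables (same strand, at least 98% identity over 200 bases). Copies outside these were not searched, so members without a listed copy may still have one. In other pairs too, the member was lower in mice where its copy had counts. Atp5h, the d subunit of the peripheral stalk of the ATP synthase, stood at 119 to 124 CPM in 6 mice, 3 of each genotype, where Gm10250 had up to 24.5 CPM, and at 141 to 150 CPM in the other 6, where Gm10250 was at or below 1 CPM. The sum of that pair varied by 1.88% between mice (SD over mean), against 9.37% for Atp5h alone. Ndufa12 stood at 54.1 to 66.7 CPM in 4 mice with counts on Gm15920, against 67.1 to 75.9 CPM in the other 8, and Cox7a2l had its lowest level, 103 CPM, in WT male 12, the only mouse with Gm6969 above 1 CPM. Adding the copies' counts left 7 members past the threshold.

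Chromosome 6, which carries Gars, holds the complex I members Ndufb2, Ndufa5, Ndufa9 and Ndufa4, the last of which is now often counted with complex IV. Their log2 changes were -0.11 (adjusted p = 0.0976), -0.07, -0.04 and -0.02, and 0 of the 4 passed by edgeR, with 1 at an unadjusted p under 0.05. DESeq2 called 0 of the 4 and limma voom called Ndufb2 (adjusted p = 0.0450). Over all genes, 6.29% of those on chromosome 6 were called and 5.33% of those elsewhere.

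Genes that build, regulate or accompany the complexes are given by list, against 2.95% of all genes called lower and a median of -0.0031. Of 44 assembly factors tested, 37 had a log2 change below 0, 3 fell (6.82%) and 0 rose by edgeR, with a median log2 change of -0.06. At an unadjusted p under 0.05, 7 were lower (15.9%, against 10.4% of all genes). Atpaf1, which assembles the catalytic head of the ATP synthase, averaged 77.0 ± 1.13 CPM in P278KY and 85.5 ± 3.43 CPM in WT cords (log2 change -0.15, adjusted p = 0.0118). Sdhaf2, which attaches the flavin cofactor of complex II, had -0.15 (adjusted p = 0.0261), and the complex IV factor Coa5 had -0.14 (adjusted p = 0.0389). Of 25 genes of mitochondrial transcription and RNA handling, 1 fell (4.0%), the RNA exonuclease Rexo2 (log2 change -0.25, adjusted p = 0.0390), and the median was -0.01. Tfam, which packages mitochondrial DNA and starts its transcription, averaged 32.6 ± 3.41 CPM in P278KY and 32.6 ± 4.51 CPM in WT cords, and the polymerase Polrmt had a log2 change of -0.01 (SE 0.04). Of 16 nuclear regulators of mitochondrial genes, edgeR called 0, with 1 higher and 0 lower at an unadjusted p under 0.05, and DESeq2 and limma voom called 1 each. Their median was 0.03, with Nrf1 at 0.10 (adjusted p = 0.323) and Gabpa at 0.05 (adjusted p = 0.672). Of 30 genes of mitochondrial content, the citric acid cycle and import, 2 fell (6.67%), the cristae protein Chchd3 (log2 change -0.24, adjusted p = 0.0145) and the succinyl-CoA ligase subunit Sucla2 (log2 change -0.13, adjusted p = 0.0376). The median was -0.04, with 11 lower at an unadjusted p under 0.05 (36.7%) and 6 called by DESeq2. Of 17 remaining subunits and electron carriers, edgeR called 0 (3 lower at an unadjusted p under 0.05), DESeq2 1 and limma voom 2, with 16 of 17 below 0 and a median of -0.10, against -0.07 for the 80 nuclear members.

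Markers of cell types also differed by genotype. Of 13 motor neuron markers tested, 10 fell, led by Spp1, Calcb, Chodl and Nefl, with a median log2 change of -0.67 (10 called by DESeq2 and 10 by limma voom), and the summed levels of the genotypes did not overlap. Of 9 Schwann cell markers 8 had a log2 change below 0, with a median of -0.97. By edgeR 2 fell, Pmp2 and Pmp22, and 6 were lower at an unadjusted p under 0.05, and DESeq2 called 5 and limma voom 4. The list summed to 1275 to 2389 CPM in P278KY and 2342 to 3404 CPM in WT mice. Of 8 fibroblast markers, Lum and Ogn fell by edgeR, and DESeq2 called 4 and limma voom 3. Of 10 astrocyte markers, Slc1a3 rose by edgeR, and DESeq2 called 3 and limma voom 2. Of 12 general neuron markers, Stmn2 fell and Syt1 rose by edgeR, and DESeq2 called 2 and limma voom 3. Of 10 sensory ganglion markers, P2rx3 rose by edgeR, and DESeq2 and limma voom called 1 each. By edgeR 0 markers were called for skeletal muscle (0 at an unadjusted p under 0.05, median -0.66), oligodendrocytes (3), microglia (0), adipocytes (2) and red blood cells (0); DESeq2 called 1 adipocyte marker and limma voom 1 red blood cell marker. The part of these cell types in the subunit result was not tested, apart from the fit with muscle and ganglion markers as covariates, in which 5 members fell (background 2.71%) and the medians were -0.200 for mitochondrially encoded and -0.070 for nuclear members.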

How the data were processed

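RNA was measured in the whole spinal cord of 12 mice, 1 library each, sequenced as 75-base read pairs from polyA-selected, stranded libraries per the labels' protocols. The submitters' processing notes name Bowtie2 2.2.0 and RSEM 1.2.12; which genome build, annotation and strand setting were used is not given in the sources used here. Deposited tables give, per gene, RSEM's expected counts (estimated, not whole) and the authors' TPM values; 0 columns of per-sample values lacked a sample.

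Expected counts were rounded and tested with edgeR 4.0.16 (R 4.3.3): filterByExpr over the 4 groups of genotype and sex, TMM scaling, robust quasi-likelihood fits with genotype and sex, and Benjamini-Hochberg adjustment over 17980 genes at 0.05. Effects within sex and the interaction came from a model of 4 group means. Printed CPM are counts per 1000000 of the TMM-scaled library. Alternatives used DESeq2 1.42.0, limma 3.58.1 and log2(TPM + 1). The members and lists were chosen with earlier results of these data known, so lists are described by counts and medians and have no test of their own. Named were all mitochondrially encoded members, nuclear members past the threshold, the 3 smallest p per complex, tissue isoforms, members on chromosome 6, up to 4 called genes of each other list, and the members nearest to the TPM limit. Replicates are separate mice per the labels. In simulated data at these depths, 4% of genes changed 1.15-fold and 22% of genes changed 1.25-fold were called among 17980 genes. The changed genes were drawn from the tested genes at large and were not matched to the level or spread of the members. These rates are therefore not those of the members. Copies were searched with blastn 2.17.0 in GENCODE M21 transcripts (GRCm38), matched by gene ID for all 93 members. Identity and length limits were chosen after seeing the data. Only same-strand matches to genes in the deposited tables were kept, so unannotated copies would be missed. Promoters came from RefSeq (GRCm38.p6), matched by symbol. 1 complex I member counts in the totals and is not reported here by itself.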

Additional observations from a re-analysis of the deposited data

Results flagged for a closer look

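Within each genotype, 92 sets of 6 mice (the 43 named members and 3 shares) were examined for a single mouse far from the others, by the gap to its nearest neighbour over the range of the set; 9 were flagged, where chance gives about 1 in 20. WT female 1 stood high for Cox6a2 (41.2 CPM, against 0.293 to 9.76 CPM in the other WT mice), Cox7a1 (10.8 CPM, against 2.42 to 5.08), Cox8b (16.4 CPM, against 0.694 to 5.22), Sdhd (79.4 CPM, against 66.7 to 70.9) and Uqcrfs1 (115 CPM, against 97.6 to 103). P278KY female 3 stood high for Cox7a1 (5.98 CPM, against 1.29 to 2.98 in the other P278KY mice) and Ndufa9 (95.2 CPM, against 87.5 to 90.03). These 2 mice had the highest sums of skeletal muscle markers, 11820 CPM in WT female 1 and 4620 CPM in P278KY female 3. WT female 2 stood low for mt-Nd6 (1243 CPM, against 1356 to 1390 in the other WT mice) and for the ratio of mitochondrially encoded to nuclear members' summed TPM (7.24, against 8.13 to 8.51).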

How the results depend on the processing

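Under 28 alternatives, all calls among the members were lower in P278KY. The count of 7 became 23 with DESeq2's Wald test, 18 with limma voom and sample weights, 12 with a filter of 1 CPM in 6 libraries, and 1 on log2(TPM + 1) and on log2(TPM + 0.1). It was 0 without P278KY females 3 and 4 and WT females 1 and 2 (high in muscle markers). It was also 0 without P278KY male 7, WT female 10 and WT male 11 (high in sensory ganglion markers). The count was 0 again without P278KY female 9, WT female 10 and WT males 11 and 12. That last set was chosen from clock genes in an earlier reading whose values are not given here. All these fits had fewer mice. With 1 mouse left out the count ran from 1 to 15. The mitochondrially encoded median kept its sign in all alternatives and ran from -0.229 to -0.168 with 1 mouse left out. The nuclear median ran from -0.093 to -0.066 with 1 mouse left out and was 0.001 on both TPM scales, where the median of all genes was 0.062 and 0.073, a difference of -0.061 and -0.072 from all genes, against -0.071 on counts. None of these differences was matched for transcript length. In males, the 2 calls became 8 with limma voom, 1 without a filter, 0 with muscle and ganglion covariates, and 0 to 5 with 1 mouse left out; in females and for the interaction they were 0 in every such fit (0 to 0). Of 1204 values of the 43 named members under alternatives, 81 lost a call, 46 gained one and 0 called values changed sign. Among the values not called, 42 changed sign. Near-identical copies were added together as an alternative chosen after seeing the data. No paired analysis was possible because the mouse numbers are not shared between the groups. At these depths changes of 10 to 20% are near the limit of detection.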
